A study of Mus musculus with 48 samples.

Results

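This report describes 32 genes of neural progenitors, dividing cells and immature neurons in RNA of the mouse preoptic area, out of 23284 genes in the count table. The genes were taken by symbol from a list that was drawn up with earlier results of these data known, and all 32 were in the table. By role they were 7 genes of mitosis (Top2a, Mki67, Birc5, Cdk1, Ccnb1, Ccna2 and Hmgb2), 6 of DNA replication (Mcm2, Mcm3, Mcm6, Pcna, Tyms and Rrm2) and 2 D-type cyclins (Ccnd1 and Ccnd2). A further 3 mark neural progenitors (Nes, Sox2 and Prom1), 7 act in the cytoskeleton and growth cone of young neurons (Dcx, Stmn1, Marcksl1, Dpysl3, Dpysl5, Tmsb10 and Gap43), 2 are transcription factors of immature neurons (Sox4 and Sox11), and 5 are surface, guidance or secreted proteins (Cd24a, Igfbpl1, Cxcr4, Robo1 and Ncam1).

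As background, neural progenitors copy their DNA in S phase with the MCM helicase, the PCNA clamp and enzymes that supply deoxynucleotides, and then divide under the control of CDK1 and its cyclins. Daughter cells that leave the cycle express SOX4 and SOX11 and proteins that reshape microtubules and actin while the axon grows. In the postnatal hypothalamus most neurons are already formed, and much of the remaining division is of glial precursors. Several of the listed genes stay active in mature neurons (Stmn1, Gap43, Ncam1) or in glia (Sox2, Marcksl1, Ccnd2), so that the list is not specific to one cell type.

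The tissue was preoptic area punches of female mice. All mice of the main groups carried GnRH CRE and the Floxed L10a-GFP allele, so that Cre, driven in neurons of gonadotropin-releasing hormone (GnRH), switched on a ribosomal protein tagged with green fluorescent protein. RNA bound to tagged ribosomes was pulled down as the GnRH Enriched Immunoprecipitant (IP), and what was left was the GnRH Depleted Supernatant. Collections were made from young, prepubertal females and from adult females in diestrus. The prenatal treatment of each mouse was vehicle or DHT (dihydrotestosterone, an androgen). The groups were young vehicle, young DHT and adult DHT, with 6 libraries each in either fraction, and adult vehicle, with 5 libraries in either fraction. A young pair of libraries, 1 IP and 1 supernatant, came from mice with Floxed L10a-GFP and no Cre and served as a negative control. The labels give no age in days and do not state whether 1 mouse or several gave each library, and the tests therefore rest on the spread among libraries, which may be technical.

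Library totals ran from 28672561 to 47054031 counts in IP (median 39475118) and from 28136004 to 55479453 in supernatant (median 40344900). Levels are given below as CPM, the count scaled to a library total of 1e+06. They were not divided by transcript length, so levels of different genes are not compared. Gnrh1, which marks the targeted neurons, was higher in IP than in supernatant by 7.19 ± 0.26 (log2, SE; edgeR adjusted p = 4.14e-26). Within groups, log2(CPM + 1) correlated across genes with a median r of 0.991 to 0.993 in supernatant, 0.954 to 0.955 in young IP and 0.921 to 0.925 in adult IP, so single genes were measured with more spread in IP. In bulk RNA a lower level from fewer cells of a type and one from less RNA per cell cannot be told apart.

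The supernatant, which holds RNA of the whole preoptic tissue apart from what was pulled down, had more of these genes called with age than the IP. In vehicle mice 12 of 31 tested members differed between adult and young supernatant at an edgeR adjusted p below 0.05, 10 lower and 2 higher in adults, where 20.3% of all 16286 tested genes were called (10.2% lower and 10.1% higher). In DHT mice 12 of 31 also differed, 9 lower and 3 higher, against 19.9% of all genes (10.5% lower and 9.47% higher). The median log2 difference of the members, adult over young, was -0.32 in vehicle and -0.23 in DHT mice, beside 0.010 and 0.011 over all tested genes. Differences of single genes with age are given below in the same way, as log2 of adult over young ± SE, and for other comparisons as log2 of the first group over the second. Cxcr4, which encodes a chemokine receptor, had 1 to 11 counts in each supernatant library and was not tested there. The 7 members called lower in both treatments were Ccnb1, Cdk1, Marcksl1, Prom1, Rrm2, Sox4 and Tmsb10, which is 7 of the 10 in vehicle and 7 of the 9 in DHT mice, and Pcna and Mcm2 were called higher in both.

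**Figure D1:**
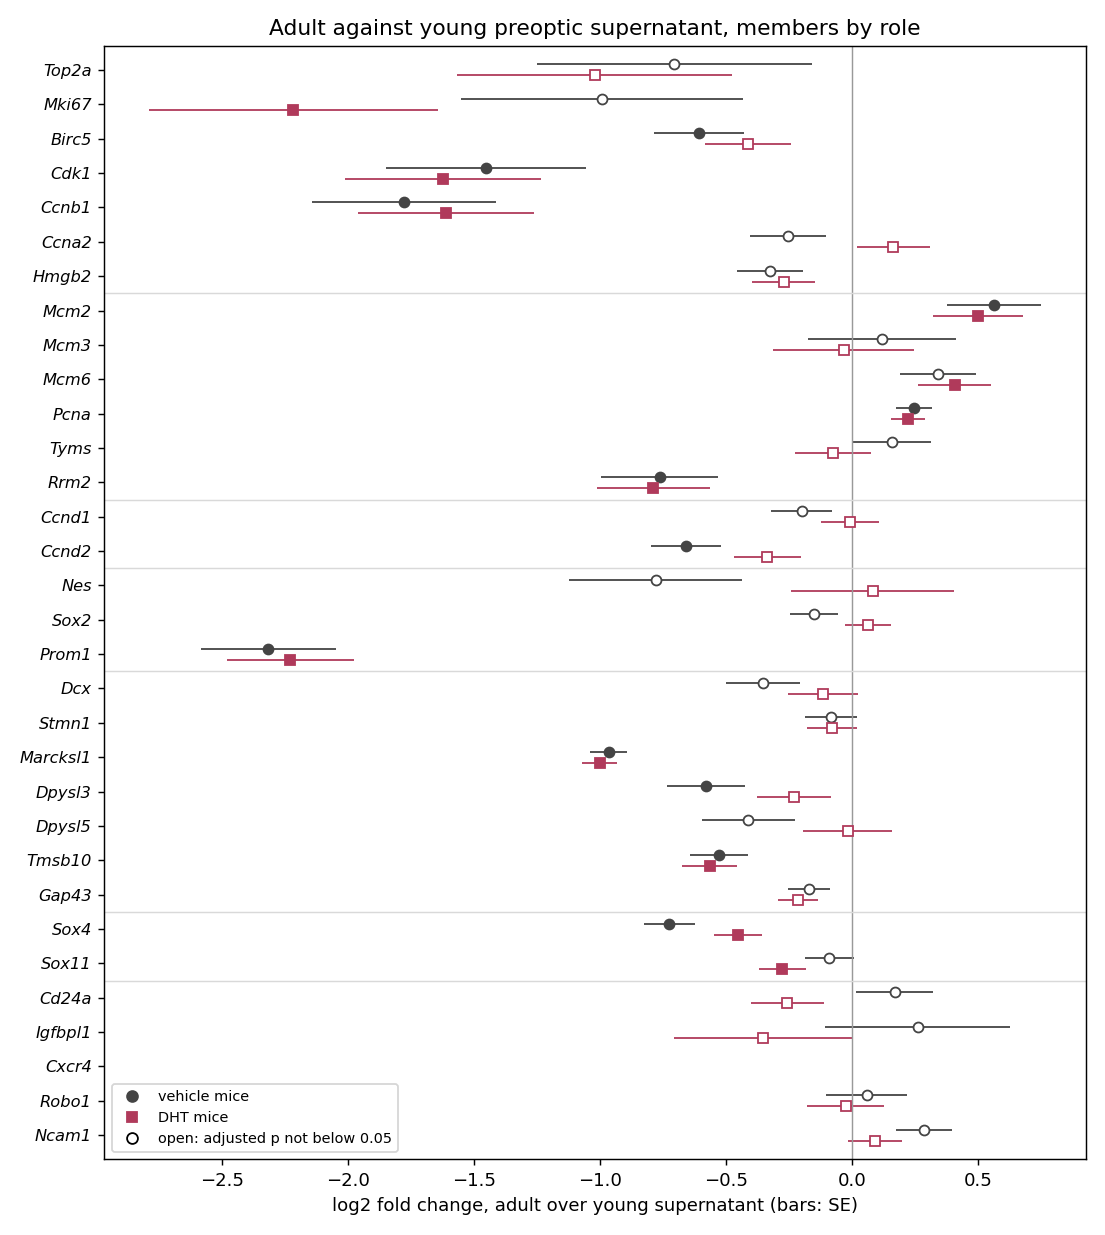
Log2 difference of each tested member between adult and young supernatant (x axis, edgeR estimate with SE bars) in vehicle and DHT mice, with open points where the adjusted p was not below 0.05. Prom1, Ccnb1, Cdk1 and Marcksl1 lie left of 0 in both treatments (Prom1 at -2.32 and -2.23), and Mcm2 and Pcna lie right of it.

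Among the genes of mitosis, 3 of 7 were lower in adult supernatant in either treatment and none was higher, with a median log2 difference of -0.70 in vehicle and -1.02 in DHT mice. Top2a, Mki67, Cdk1 and Ccnb1 had group means of at most 1.26 CPM in supernatant, so their values rest on few counts. Ccnb1 encodes the cyclin that activates CDK1 at entry into mitosis (chromosome 13, 100778650 to 100786570, minus strand, GRCm38). In vehicle supernatant, Ccnb1 ran from 0.771 to 2.05 CPM (median 1.26) in the 6 young libraries and stood at 0.573, 0.262, 0.0740, 0.359 and 0.559 CPM in the 5 adult libraries. All adult libraries were below all young ones, and the difference was -1.78 ± 0.36 (SE; edgeR adjusted p = 0.0013). In DHT supernatant, Ccnb1 ran from 0.589 to 1.44 CPM (median 1.13) in the 6 young libraries and from 0.267 to 0.483 CPM (median 0.356) in the 6 adult libraries. Here too the ages did not overlap, with a difference of -1.61 ± 0.35 (SE; edgeR adjusted p = 0.0022). Members with no overlap between ages numbered 5 lower and 1 higher in vehicle supernatant (5.4% and 5.43% of all genes) and 7 lower and 0 higher in DHT supernatant (4.54% and 3.93% of all genes).

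Cdk1, the kinase itself (chromosome 10, 69335146 to 69352938, minus strand), was also called in both treatments. In vehicle supernatant, Cdk1 ran from 0.409 to 1.38 CPM (median 0.701) in the 6 young libraries and stood at 0.370, 0.191, 0.420, 0.359 and 0.234 CPM in the 5 adult libraries. The highest adult library lay just above the lowest young one, and the difference was -1.45 ± 0.40 (SE; edgeR adjusted p = 0.0115). In DHT supernatant, Cdk1 ran from 0.536 to 1.24 CPM (median 0.664) in the 6 young libraries and from 0.0775 to 0.476 CPM (median 0.209) in the 6 adult libraries. The ages did not overlap there, and Cdk1 differed by -1.62 ± 0.39 (SE; edgeR adjusted p = 0.0049). Mki67, whose protein coats mitotic chromosomes (chromosome 7, 135689784 to 135716361, minus strand), overlapped between ages in vehicle mice and did not in DHT mice. In vehicle supernatant, Mki67 ran from 0.143 to 1.09 CPM (median 0.381) in the 6 young libraries and stood at 0.333, 0.215, 0.0987, 0.0957 and 0.342 CPM in the 5 adult libraries, and the difference of -0.99 ± 0.56 (SE; edgeR adjusted p = 0.227) did not pass. In DHT supernatant, Mki67 ran from 0.446 to 0.713 CPM (median 0.541) in the 6 young libraries and from 0 to 0.359 CPM (median 0.0701) in the 6 adult libraries. That difference was -2.22 ± 0.57 (SE; edgeR adjusted p = 0.00838), with 1 adult library at 0. The age-by-treatment term for Mki67, -1.22 ± 0.80 (SE; edgeR adjusted p = 0.875), did not pass, so the ages are not shown to differ more in DHT mice.

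Of the other mitosis members, Birc5, a subunit of the chromosomal passenger complex, fell in vehicle mice, at -0.61 ± 0.18 (SE; edgeR adjusted p = 0.0172) from 2.31 ± 0.381 CPM (SD, n = 6) to 1.55 ± 0.208 CPM (SD, n = 5). In DHT mice it stood at -0.41 with an edgeR adjusted p of 0.09. Top2a, the topoisomerase that untangles chromosomes, had point estimates of -0.70 ± 0.54 in vehicle and -1.02 ± 0.55 in DHT mice, and neither passed. Hmgb2, a DNA-bending chromatin protein, stood at -0.32 ± 0.13 and -0.27 ± 0.13, and Ccna2, the cyclin of S phase and G2, at -0.25 ± 0.15 and 0.16 ± 0.14, again without a call. Exons of Ccna2 share 12.5% of their bases with Exosc9, a protein-coding gene on the opposite strand. Without strand information, reads from the shared bases cannot be told apart. Ccnb1 was the one gene of this group whose calls in both treatments stood in every fit run without 1 library and without the 10 young vehicle and DHT libraries that carry the last sample numbers. Without those 10, Cdk1 stood at -1.25 (edgeR adjusted p = 0.0525) in vehicle and -1.34 (0.0968) in DHT mice, Mki67 in DHT mice at -1.99 (0.0747), and Birc5 in vehicle mice at -0.52 (0.0905). Birc5 in DHT mice was called at -0.51 (0.031) without young DHT replicate 3, and Hmgb2 in vehicle mice at -0.40 to -0.39 (0.0452 to 0.0488) without adult vehicle replicate 5 or young vehicle replicate 2, and also by limma voom (0.0241) and with the replicate block (0.0411).

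**Figure D2:**
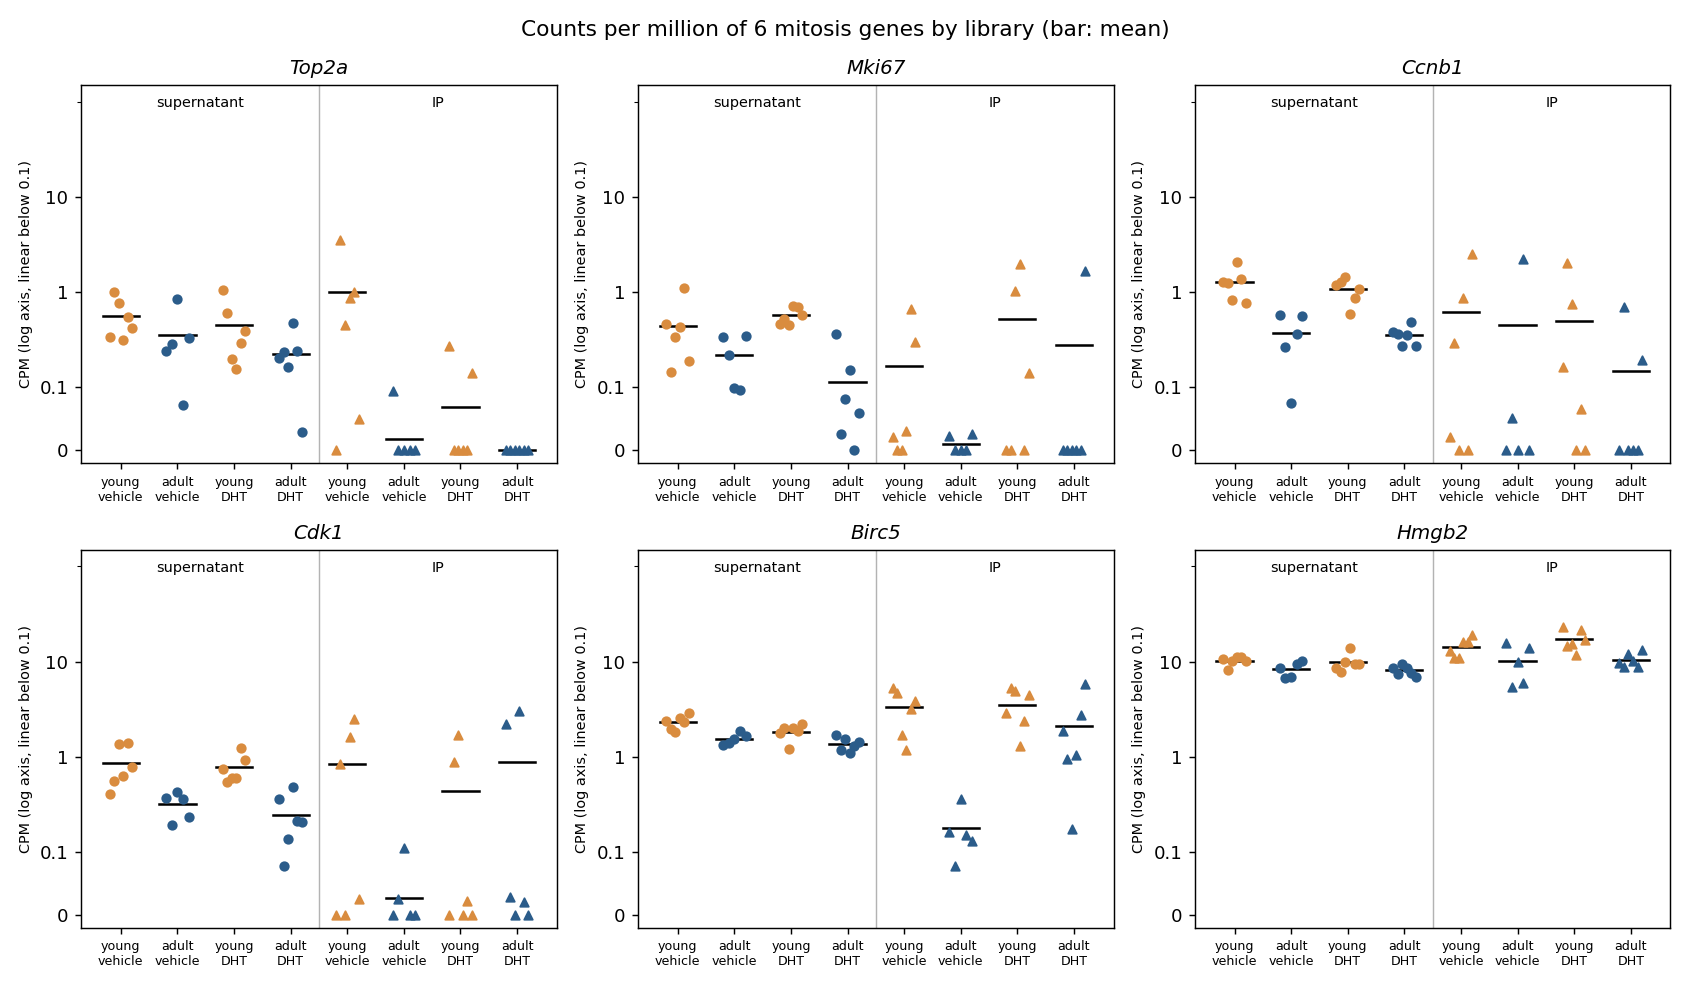
CPM of 6 mitosis genes in every library of the 8 groups (log y axis, linear below 0.1 so that libraries at 0 can be drawn, 1 point per library). In supernatant the adult points of Ccnb1 lie below the young ones, and in IP many libraries lie at 0.

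The genes of DNA replication did not move as one. In vehicle supernatant 2 of 6 were higher in adults and 1 was lower, and in DHT supernatant 3 were higher and 1 was lower, with medians of 0.20 and 0.10 on the log2 scale. Pcna, the clamp that holds DNA polymerase on its template and also serves in repair (chromosome 2, 132249162 to 132253314, minus strand), was the best measured of the rising genes. In vehicle supernatant, Pcna ran from 31.4 to 33.6 CPM (median 32.6) in the 6 young libraries and stood at 37.4, 37.8, 38.1, 39.7 and 43.1 CPM in the 5 adult libraries. Every adult library was above every young one, and the rise was 0.25 ± 0.071 (SE; edgeR adjusted p = 0.0158). In DHT supernatant, Pcna ran from 29.2 to 37.8 CPM (median 34.4) in the 6 young libraries and from 37.7 to 42.1 CPM (median 39.6) in the 6 adult libraries. The highest young library lay just above the lowest adult one, and the rise was 0.22 ± 0.068 (SE; edgeR adjusted p = 0.0224).

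Mcm2, a subunit of the replicative helicase (chromosome 6, 88883474 to 88898780, minus strand), rose by 0.56 ± 0.19 (SE; edgeR adjusted p = 0.0324) in vehicle and 0.50 ± 0.18 (SE; edgeR adjusted p = 0.0479) in DHT mice. In vehicle supernatant, Mcm2 ran from 2.68 to 4.39 CPM (median 3.53) in the 6 young libraries and stood at 5.95, 5.85, 5.21, 4.64 and 4.33 CPM in the 5 adult libraries. In DHT supernatant, Mcm2 ran from 2.99 to 4.84 CPM (median 3.89) in the 6 young libraries and from 3.00 to 8.02 CPM (median 5.91) in the 6 adult libraries. The adult libraries were mostly higher, with a narrow overlap in vehicle mice (the lowest adult against the highest young library) and 1 adult DHT library close to the lowest young one. Mcm6, another helicase subunit, rose in DHT mice by 0.41 ± 0.14 (SE; edgeR adjusted p = 0.0476) and stood at 0.34 ± 0.15 in vehicle mice (edgeR adjusted p = 0.114). Mcm3, of the same complex, and Tyms, thymidylate synthase, were not called, with estimates from -0.076 to 0.16 over both genes and treatments.

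Rrm2, the S-phase subunit of ribonucleotide reductase that supplies deoxynucleotides (chromosome 12, 24708241 to 24714146, plus strand), went the other way. In vehicle supernatant, Rrm2 ran from 1.75 to 3.59 CPM (median 2.34) in the 6 young libraries and stood at 1.77, 1.15, 1.31, 0.981 and 2.04 CPM in the 5 adult libraries. Values of 2 adult libraries reached into the young range, and the difference was -0.76 ± 0.23 (SE; edgeR adjusted p = 0.0219). In DHT supernatant, Rrm2 ran from 1.79 to 2.56 CPM (median 2.29) in the 6 young libraries and from 0.675 to 1.69 CPM (median 1.36) in the 6 adult libraries. The ages did not overlap, and the difference was -0.79 ± 0.22 (SE; edgeR adjusted p = 0.015).

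Most of these replication calls lay near the threshold. Pcna in vehicle mice kept its call in 9 of 9 alternative settings and in 11 of 11 fits without 1 library. Mcm2 in vehicle mice lost its call without any 1 of 6 libraries (adult vehicle replicates 1, 2 and 3, young vehicle replicates 1, 3 and 4), at edgeR adjusted p = 0.0526 to 0.086. With the replicate number as a block it stood at 0.55 (0.0581). In DHT mice Mcm2 lost it without any 1 of 8 (adult DHT replicates 1, 3, 4 and 6, young DHT replicates 1, 2, 4 and 6), at 0.0573 to 0.129. Mcm2 in DHT mice was also not called by limma voom (0.31, adjusted p = 0.244), or by edgeR with no filter on low counts (0.50, 0.0545), with the replicate block (0.49, 0.0681), with the compared groups only (0.50, 0.0893) or with a term for the last 10 sample numbers (0.52, 0.096). Mcm6 and Pcna in DHT mice lost their calls with that term, at 0.243 and 0.133, and with the compared groups only, at 0.067 and 0.0641. Mcm6 in DHT mice lost it without any 1 of 8 (adult replicates 2 to 5, young replicates 1, 4, 5 and 6), at 0.0518 to 0.127. The estimates of both helicase genes stayed above 0 in each of these fits. Pcna in DHT mice lost it without adult DHT replicate 2 or young DHT replicate 4 or 6, at 0.0509 to 0.0615, and Rrm2 in vehicle mice without adult vehicle replicate 2, 3 or 4 or young vehicle replicate 3, at 0.0561 to 0.0643. Without the last 10 sample numbers the DHT estimates were 0.15 for Pcna, 0.42 for Mcm2, 0.24 for Mcm6 and -0.71 for Rrm2, with edgeR adjusted p = 0.259, 0.273, 0.474 and 0.138. In vehicle mice Mcm2, Pcna and Rrm2 kept their calls without those numbers, at edgeR adjusted p = 0.0188, 0.0154 and 0.0135.

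Promoters of 5 members are shown because their transcripts moved in opposite directions or in parallel with age while their upstream sequences hold different sets of cell cycle motifs. The windows are the 250 bases before the annotated start, from RefSeq (GRCm38.p6), which held a window for 23 of the 32 members. Capitals mark matches on either strand to the CHR motif (TTTGAA, or TTCAAA on the other strand), the CCAAT box (CCAAT, or ATTGG on the other strand) and E2F-type sites (the letters TTCCCGC, those of TTGGCGC and those of TTCGCGC, or their reverse complements). Over 32851 RefSeq promoter windows of the same length, 16.0% held the CHR letters, 33.8% the CCAAT letters and 6.69% an E2F-type site. Of the 27 windows of the 23 members, 6, 16 and 5 did. The windows are Cdk1 at chr10:69352913-69353162, minus strand, Mki67 at chr7:135716380-135716629, minus strand, Rrm2 at chr12:24708004-24708253, plus strand, Mcm2 at chr6:88898781-88899030, minus strand, and Marcksl1 at chr4:129513331-129513580, plus strand.
Cdk1: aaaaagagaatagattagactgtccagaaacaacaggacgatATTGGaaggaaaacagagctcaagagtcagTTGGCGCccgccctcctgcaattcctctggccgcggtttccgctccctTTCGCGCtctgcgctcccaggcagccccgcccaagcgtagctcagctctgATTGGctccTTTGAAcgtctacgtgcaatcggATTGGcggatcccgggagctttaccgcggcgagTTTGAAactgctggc
Mki67: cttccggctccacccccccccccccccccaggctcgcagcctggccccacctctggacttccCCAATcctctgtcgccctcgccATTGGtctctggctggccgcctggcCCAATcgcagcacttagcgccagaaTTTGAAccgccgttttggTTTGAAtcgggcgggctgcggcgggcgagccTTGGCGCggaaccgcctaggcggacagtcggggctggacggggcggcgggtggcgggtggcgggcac
Rrm2: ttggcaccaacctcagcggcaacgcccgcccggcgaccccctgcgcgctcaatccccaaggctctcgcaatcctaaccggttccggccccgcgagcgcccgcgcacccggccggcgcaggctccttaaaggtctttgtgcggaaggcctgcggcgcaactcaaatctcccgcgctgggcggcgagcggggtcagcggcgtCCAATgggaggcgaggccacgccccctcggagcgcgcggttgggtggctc
Mcm2: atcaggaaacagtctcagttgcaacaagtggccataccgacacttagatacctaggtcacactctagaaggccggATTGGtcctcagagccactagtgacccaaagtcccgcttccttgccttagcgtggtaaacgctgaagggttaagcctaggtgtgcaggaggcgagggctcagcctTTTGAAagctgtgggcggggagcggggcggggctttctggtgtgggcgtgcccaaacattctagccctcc
Marcksl1: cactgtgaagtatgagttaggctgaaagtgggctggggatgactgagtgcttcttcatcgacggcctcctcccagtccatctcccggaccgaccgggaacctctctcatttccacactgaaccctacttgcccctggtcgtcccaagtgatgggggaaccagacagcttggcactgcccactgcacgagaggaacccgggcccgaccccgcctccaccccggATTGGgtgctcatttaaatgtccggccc

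Cdk1 and Mki67, which were lower in adults where called, held all 3 kinds of match. In Cdk1 the CHR letters began 71 and 15 bases before the start, and in Mki67 116 and 98 bases before it, each with 3 CCAAT matches farther up or nearby. Mcm2, which was higher in adults, also held the CHR letters, 70 bases before the start, and 1 CCAAT match 175 bases before it. Rrm2, which was lower in adults, held 1 CCAAT match 50 bases before the start and no match to either other motif, and Marcksl1 held 1 CCAAT match 28 bases before the start. Of the mitosis genes called lower in adult supernatant but not shown, Ccnb1 held 2 CCAAT matches, 1 E2F-type site and no CHR letters. Birc5, called in vehicle mice, held no match to any of the motifs. Matches thus occurred in genes of both directions. A match is a run of letters and was not tested as a binding site. Only the letters given above were searched, so a window without a match is not shown to lack the motif.

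The D-type cyclins couple growth signals to entry into the cycle. Ccnd2 fell in vehicle supernatant, at -0.66 ± 0.14 (SE; edgeR adjusted p = 0.00182). In vehicle supernatant, Ccnd2 ran from 20.0 to 31.4 CPM (median 26.4) in the 6 young libraries and stood at 14.9, 14.6, 17.6, 22.2 and 14.5 CPM in the 5 adult libraries. Of the adult libraries 4 were below all young ones, and 1 reached the lower part of the young range. In DHT mice Ccnd2 stood at -0.34 ± 0.13 (edgeR adjusted p = 0.0753), and Ccnd1 was at -0.20 ± 0.12 and -0.0083 ± 0.12 without a call. Exons of Ccnd1 share 23.4% of their bases with LTO1, a protein-coding gene on the opposite strand, so its counts may hold reads of both. Without adult DHT replicate 4 or young DHT replicate 2, Ccnd2 was called in DHT mice at -0.41 to -0.40 (edgeR adjusted p = 0.0299 to 0.0455), and it was called by DESeq2 (0.048) and with the replicate block (0.0293).

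Among the progenitor genes, Prom1 fell in vehicle and in DHT supernatant. Prom1 encodes prominin, a glycoprotein of membrane protrusions that is used to mark neural stem cells and is also found in glia (chromosome 5, 43993620 to 44102032, minus strand). In vehicle supernatant, Prom1 ran from 3.13 to 7.84 CPM (median 4.31) in the 6 young libraries and stood at 0.998, 1.17, 1.33, 0.718 and 0.775 CPM in the 5 adult libraries. In DHT supernatant, Prom1 ran from 4.56 to 6.96 CPM (median 5.33) in the 6 young libraries and from 0.594 to 1.88 CPM (median 1.08) in the 6 adult libraries. All adult libraries lay below all young ones, at -2.32 ± 0.27 (SE; edgeR adjusted p = 1.5e-06) in vehicle and -2.23 ± 0.25 (SE; edgeR adjusted p = 1.06e-06) in DHT mice, a level 4.98-fold and 4.68-fold lower. The other 2 progenitor genes were not called. Nes, the intermediate filament nestin, stood at -0.78 ± 0.34 and 0.082 ± 0.32, and Sox2, a transcription factor of progenitors and glia, at -0.15 ± 0.10 and 0.063 ± 0.092. Nes was called in vehicle mice at -1.05 (edgeR adjusted p = 0.0443) without adult vehicle replicate 5.

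In the cytoskeleton and growth cone group 3 of 7 fell in vehicle and 2 of 7 in DHT supernatant, and the point estimates of all 7 were below 0 in both. Marcksl1 encodes a calmodulin-binding protein that acts on actin in growing processes (chromosome 4, 129513581 to 129515985, plus strand). In vehicle supernatant, Marcksl1 ran from 813 to 1013 CPM (median 955) in the 6 young libraries and stood at 499, 526, 472, 459 and 502 CPM in the 5 adult libraries. In DHT supernatant, Marcksl1 ran from 836 to 1032 CPM (median 919) in the 6 young libraries and from 395 to 514 CPM (median 453) in the 6 adult libraries. The ages were far apart in both, with a difference of -0.96 ± 0.074 (SE; edgeR adjusted p = 3.95e-09) in vehicle mice and a level 2.00-fold lower in DHT mice (edgeR adjusted p = 7.67e-10). The age-by-treatment term for Marcksl1 was -0.036 ± 0.10 (SE; edgeR adjusted p = 0.971).

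Tmsb10, thymosin beta, which binds actin monomers (chromosome 6, 72957347 to 72958748, minus strand), fell, at -0.53 ± 0.11 (SE; edgeR adjusted p = 0.0021) in vehicle and -0.56 ± 0.11 (SE; edgeR adjusted p = 0.000766) in DHT mice. In vehicle supernatant, Tmsb10 ran from 657 to 931 CPM (median 794) in the 6 young libraries and stood at 552, 539, 479, 609 and 624 CPM in the 5 adult libraries. In DHT supernatant, Tmsb10 ran from 589 to 999 CPM (median 759) in the 6 young libraries and from 431 to 627 CPM (median 508) in the 6 adult libraries. The ages did not overlap in vehicle mice, and in DHT mice 1 young library lay inside the adult range. Dpysl3, a collapsin response mediator of axon guidance, fell in vehicle mice, at -0.58 ± 0.15 (SE; edgeR adjusted p = 0.00943) and stood at -0.23 ± 0.15 in DHT mice, where it was called with a term for the last 10 sample numbers, at -0.45 (edgeR adjusted p = 0.0177). Its relative Dpysl5 stood at -0.41 ± 0.19 and -0.018 ± 0.18 without a call. Levels of Dpysl5 differed within the young vehicle group, from 81.9 to 118.8 CPM in replicates 1 to 4 and 68.0 to 70.7 CPM in replicates 5 and 6, which are among the last 10 sample numbers, and without these it was called at -0.57 (edgeR adjusted p = 0.00582). It was also called with a term for those numbers (0.00163) and with the replicate block (0.0146). Dcx, the microtubule protein doublecortin that is widely used to mark young neurons, was not called, at -0.35 ± 0.15 in vehicle and -0.11 ± 0.14 in DHT mice (edgeR adjusted p = 0.0917 and 0.601). Dcx was called in vehicle mice with the term for the last 10 sample numbers, at -0.42 (edgeR adjusted p = 0.0421), and by limma voom, at -0.36 (adjusted p = 0.0462). Stmn1, which frees tubulin from microtubules, and Gap43, of the growth cone membrane, had estimates from -0.21 to -0.078 over both treatments and were not called. Gap43 was called in DHT mice at -0.25 to -0.23 (edgeR adjusted p = 0.024 to 0.0484) without adult DHT replicate 1 or young DHT replicate 1 or 3, and by limma voom (0.0424) and with the replicate block (0.0371).

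Of the transcription factors, Sox4 fell in both treatments (chromosome 13, 28948919 to 28953713, minus strand). In vehicle supernatant, Sox4 ran from 60.1 to 90.2 CPM (median 70.7) in the 6 young libraries and stood at 49.0, 51.6, 42.3, 46.5 and 35.9 CPM in the 5 adult libraries. In DHT supernatant, Sox4 ran from 61.6 to 85.3 CPM (median 64.0) in the 6 young libraries and from 44.7 to 53.3 CPM (median 50.3) in the 6 adult libraries. The ages did not overlap in either, with differences of -0.72 ± 0.10 (SE; edgeR adjusted p = 2.26e-05) and -0.45 ± 0.10 (SE; edgeR adjusted p = 0.00187). Exons of Sox4 share 54.6% of their bases with Gm26735, a noncoding gene on the opposite strand, and without strand information reads of the pair cannot be told apart. Its relative Sox11 fell in DHT mice, at -0.28 ± 0.093 (SE; edgeR adjusted p = 0.037) and stood at -0.089 ± 0.10 in vehicle mice. That call was lost without any 1 of 6 libraries (adult DHT replicates 1, 2, 3 and 5, young DHT replicates 2 and 3), at edgeR adjusted p = 0.0569 to 0.105, and with the compared groups only, at 0.0588.

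None of the 4 surface, guidance and secreted members tested in supernatant was called in either treatment by edgeR, with 1 in vehicle and 0 in DHT mice at an unadjusted p below 0.05. Ncam1, a neural adhesion molecule, stood at 0.29 ± 0.11 in vehicle mice (edgeR adjusted p = 0.0707) and 0.092 ± 0.11 in DHT mice. Without the last 10 sample numbers it was called in vehicle mice at 0.47 (edgeR adjusted p = 0.000713), where young vehicle replicates 1 to 4 ran from 154.8 to 196.0 CPM and replicates 5 and 6 stood at 204.6 and 272.0 CPM. Leaving out young vehicle replicate 6 alone gave 0.40 (0.00297), and Ncam1 in vehicle mice was also called by limma voom (0.0108), with the replicate block (0.0239) and with the term for the last 10 sample numbers (0.0295). Cd24a, a surface glycoprotein of young neurons, Igfbpl1, a secreted protein of young neurons, and Robo1, a Slit receptor of axons, ranged from -0.35 to 0.26.

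**Figure D3:**
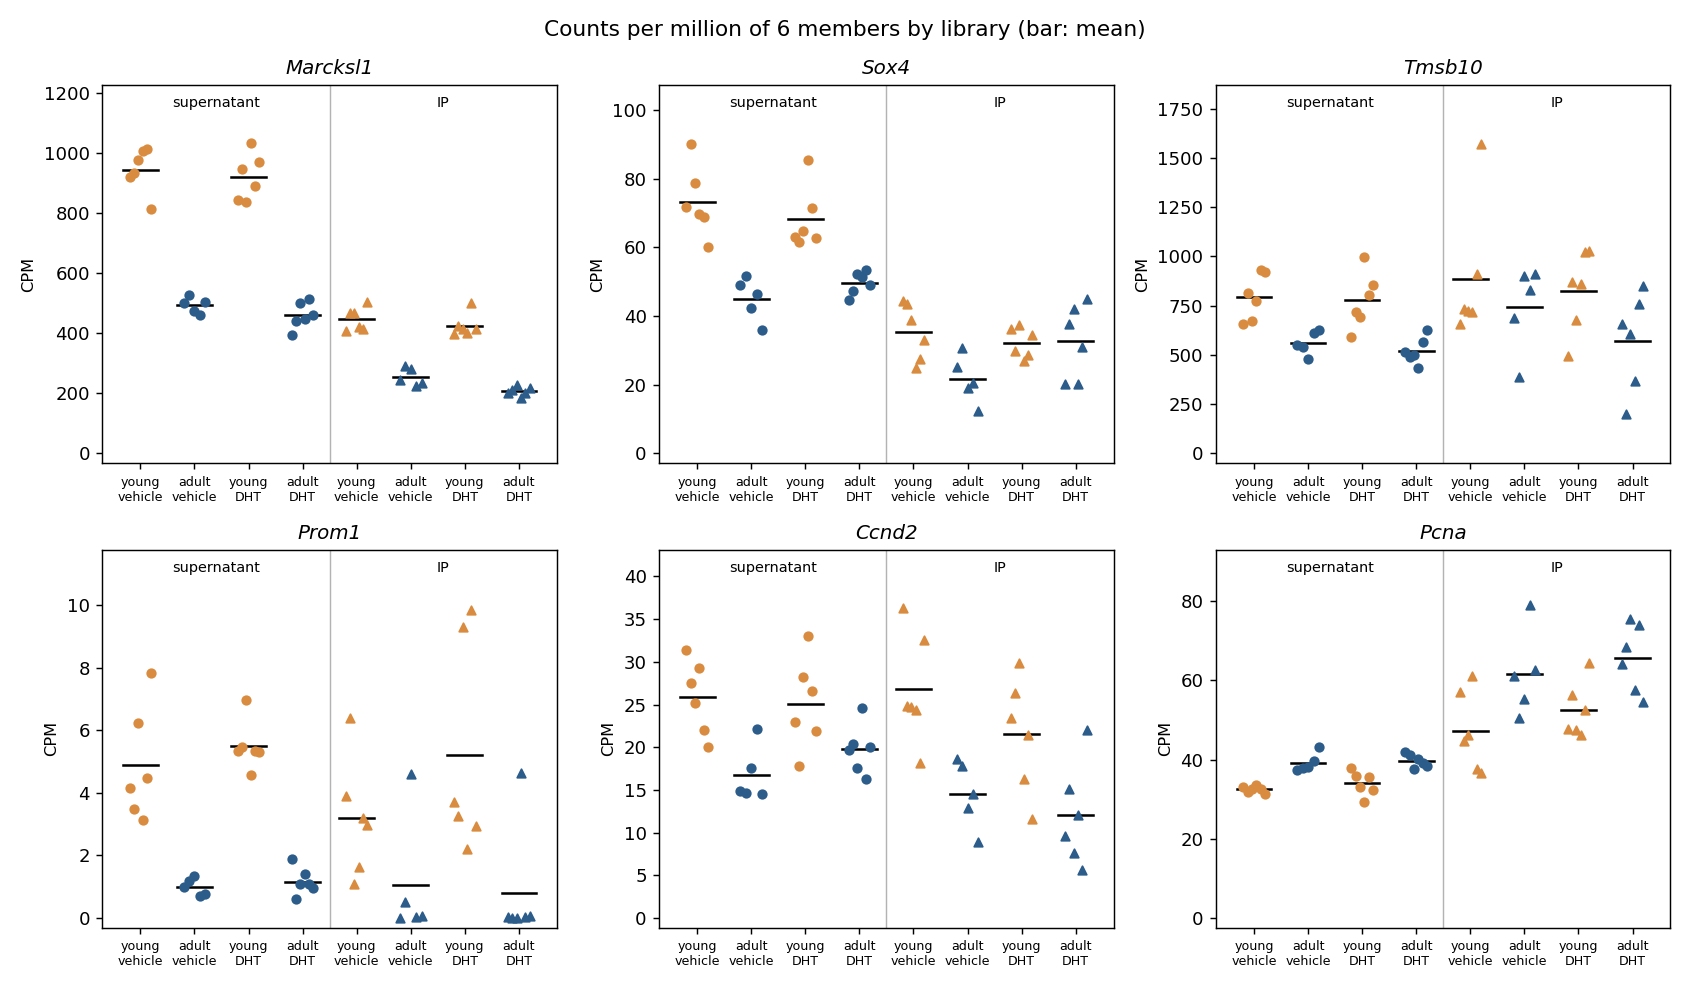
CPM of 6 members in every library (y axis from 0, 1 point per library, bar at the group mean) for the 8 groups of fraction, age and prenatal treatment. In supernatant Marcksl1, Sox4, Tmsb10 and Prom1 are lower in adults than in young mice and Pcna is higher, and Marcksl1 is also lower in adult IP.

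Other genes of the same pathways, which are not members, gave mixed counts. Of 23 other mitosis genes tested in supernatant, 1 rose and 3 fell with age in either treatment, with medians of -0.18 in vehicle and -0.22 in DHT mice. The centromere histone gene Cenpa fell, at -1.09 ± 0.20 (SE; edgeR adjusted p = 0.000402) in vehicle and -1.07 ± 0.19 (SE; edgeR adjusted p = 0.000347) in DHT mice, and the ubiquitin enzyme gene Ube2c, which acts at the end of mitosis, at -0.99 ± 0.25 (SE; edgeR adjusted p = 0.00755) and -0.88 ± 0.25 (SE; edgeR adjusted p = 0.0136). Of 21 other replication genes, 4 rose and 0 fell in vehicle and 3 rose and 2 fell in DHT mice, with medians of 0.036 and 0.064. Rrm1, the partner of Rrm2 in ribonucleotide reductase, rose by 0.48 ± 0.14 (SE; edgeR adjusted p = 0.0158) and 0.64 ± 0.13 (SE; edgeR adjusted p = 0.00132), opposite to Rrm2, and the flap endonuclease gene Fen1 by 0.39 ± 0.088 (SE; edgeR adjusted p = 0.00301) and 0.43 ± 0.085 (SE; edgeR adjusted p = 0.000891).

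Of 23 other genes of immature neurons, 0 rose and 8 fell in vehicle and 0 rose and 6 fell in DHT supernatant, with medians of -0.18 and -0.068. They included Sox12, the third gene of the Sox4 and Sox11 family, at -0.40 ± 0.083 and -0.51 ± 0.079, and Stmn2, a relative of Stmn1, at -0.45 ± 0.063 and -0.43 ± 0.060 (log2, SE). Of 15 other progenitor genes, 1 rose and 4 fell in vehicle and 1 rose and 3 fell in DHT mice, with medians of -0.24 and -0.17. Fabp7, the fatty acid binding protein of radial glia, fell, at -1.10 ± 0.21 (SE; edgeR adjusted p = 0.000672) and -1.03 ± 0.20 (SE; edgeR adjusted p = 0.000856).

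Markers of oligodendrocyte lineage cells moved with age in the same supernatant libraries. Of 6 premyelinating markers, 5 fell in vehicle and 6 in DHT mice, and their summed level had a median of 132 CPM (105 to 167) in young and 48.1 CPM (45.9 to 60.2) in adult vehicle libraries, and 131 CPM (116 to 159.5) against 47.5 CPM (39.4 to 62.8) in DHT libraries. Of 7 precursor markers, 3 fell in vehicle and 2 in DHT mice, and their summed medians were 634 CPM (598 to 727) and 387 CPM (335 to 433) in vehicle and 585 CPM (548 to 731) and 369 CPM (335 to 463) in DHT libraries. Of 7 myelinating markers, 7 and 6 fell, with summed medians of 4098 CPM (3658 to 4979) and 1985 CPM (1669 to 2709) in vehicle and 4012 CPM (3496 to 5277) and 2032 CPM (1580 to 3645) in DHT libraries. No marker of these 3 lists was at 0 in all libraries of a group. Mature neuron markers rose, 3 of 6 in either treatment, from a summed median of 3878 to 4557 CPM in vehicle and 3850 to 4750 CPM in DHT libraries. Of 7 astrocyte and 5 ependymal and tanycyte markers 0 were called with age in supernatant by edgeR (2 astrocyte markers in DHT mice at an unadjusted p below 0.05), 2 microglial markers rose in vehicle and 0 in DHT mice, and 2 of 6 endothelial and mural markers fell in either treatment. The part of any of these cell types in the members' differences was not tested.

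No member was shown to differ with age more in one treatment than in the other. The age-by-treatment term was called for 0 of 31 members in supernatant and 0 of 32 in IP, where 0% of all tested genes were called in either fraction. At an unadjusted p below 0.05 there were 0 in supernatant and 4 in IP, and DESeq2 and limma voom called 0. The smallest edgeR adjusted p-values were for Cd24a in supernatant (0.875) and Birc5 in IP (0.781).

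In the GnRH-enriched IP, whose libraries had more spread, fewer members were called with age. In vehicle mice 3 of 32 were called, all lower in adults, against 3.83% of all 15890 tested genes (1.79% lower). In DHT mice 2 of 32 were called, 1 lower and 1 higher, against 7.12% (3.32% lower and 3.8% higher). Medians were -0.32 and -0.11, beside 0.0063 and 0.029 over all tested genes. The ages did not overlap for 3 lower members in vehicle IP and 0 higher ones (3.1% and 1.62% of all genes) and for 1 lower and 0 higher members in DHT IP (2.91% and 1.8% of all genes).

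Marcksl1 was the one member called with age in both fractions and both treatments. In vehicle IP, Marcksl1 ran from 405 to 503 CPM (median 443) in the 6 young libraries and stood at 242, 291, 282, 223 and 233 CPM in the 5 adult libraries. In DHT IP, Marcksl1 ran from 398 to 499 CPM (median 413) in the 6 young libraries and from 182 to 226 CPM (median 206) in the 6 adult libraries. All adult IP libraries were below all young ones, at -0.77 ± 0.11 (SE; edgeR adjusted p = 0.000274) in vehicle and -1.01 ± 0.11 (SE; edgeR adjusted p = 5.84e-06) in DHT mice. In the same IP libraries the summed myelinating markers had medians of 3606 CPM (3080 to 4141) in young and 1363 CPM (1296 to 1878) in adult vehicle mice, and 4041 CPM (2991 to 4813) against 1710 CPM (1041 to 3431) in DHT mice, and their part in this fall was not tested. Of the marker lists in IP, 2 and 5 of 7 myelinating, 1 and 1 of 6 premyelinating and 1 and 1 of 7 precursor markers fell in vehicle and DHT mice, and 2 of 6 mature neuron markers rose in DHT mice. At an unadjusted edgeR p below 0.05 there were 5 of 6 mature neuron markers in vehicle and 3 of 6 in DHT IP. Their summed level ran from 3418 to 4200 CPM in young and 4479 to 5512 CPM in adult vehicle IP, and from 3599 to 4201 CPM against 4372 to 6341 CPM in DHT IP.

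Birc5 fell in vehicle IP, at -4.18 ± 0.89 (SE; edgeR adjusted p = 0.00794). In vehicle IP, Birc5 ran from 1.16 to 5.28 CPM (median 3.51) in the 6 young libraries and stood at 0.163, 0.0768, 0.359, 0.150 and 0.131 CPM in the 5 adult libraries. Every young library was above every adult one. Nes fell in vehicle IP, at -6.66 ± 1.80 (SE; edgeR adjusted p = 0.0376), where 3 of 5 adult libraries had no count and the other 2 held 6 counts together. In vehicle IP, Nes ran from 0.286 to 7.18 CPM (median 2.83) in the 6 young libraries and stood at 0.0233, 0, 0, 0 and 0.131 CPM in the 5 adult libraries. The call for Nes was lost without any 1 of 8 libraries (adult vehicle replicates 1 to 4, young vehicle replicates 1, 2, 4 and 6), at edgeR adjusted p = 0.0564 to 0.0886, and stood at 0.0818 without the last 10 sample numbers. In DHT IP neither was called, Birc5 at -0.73 ± 0.72 and Nes at -0.14 ± 1.27 (edgeR adjusted p = 0.66 and 0.975). Ncam1 rose in DHT IP by 0.90 ± 0.25 (SE; edgeR adjusted p = 0.0279). In DHT IP, Ncam1 ran from 62.4 to 122 CPM (median 72.2) in the 6 young libraries and from 80.7 to 221 CPM (median 151) in the 6 adult libraries. Values of 2 adult libraries lay inside the young range, and the call was lost without any 1 of 6 libraries (adult DHT replicates 2 and 4, young DHT replicates 1, 2, 5 and 6), at 0.0614 to 0.0881, without the last 10 sample numbers at 0.178 and with the compared groups only at 0.0525.

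Calls with age in DHT IP also turned on single libraries. Prom1 stood at -2.71 ± 1.44 (edgeR adjusted p = 0.301) with adult DHT replicate 4 at 4.64 CPM and the other 5 adult libraries at 0 to 0.0633 CPM, and at -7.68 (0.00451) without it. Rrm2 stood at -1.26 ± 1.56 (0.748) with adult DHT replicate 3 at 5.79 CPM, and at -7.34 (0.0131) without it. In the 5 adult libraries then left, either gene had 0 to 2 counts, so the sizes of -7.68 and -7.34 depend on the prior count. Limma voom called both with all libraries, Prom1 at 0.0127 and Rrm2 at 0.0463. Ccnd2 stood at -0.81 ± 0.30 (0.109), and at -1.06 (0.0319) without adult DHT replicate 6, and DESeq2 called it (0.0382). Of the other pathway genes in IP, 0 of 22 mitosis genes were called by edgeR in either treatment (1 in vehicle and 4 in DHT mice at an unadjusted p below 0.05), 1 of 19 replication genes rose in DHT mice, 1 and 3 of 23 immature neuron genes fell in vehicle and DHT mice, and 3 of 15 progenitor genes fell in vehicle mice.

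The comparison of fractions asked which of these genes were enriched or depleted with tagged ribosomes of GnRH neurons, as a mean over the 4 conditions of age and treatment. Of 32 members 13 differed, 4 higher and 9 lower in IP, against 46.1% of all 16660 tested genes (24.4% higher and 21.7% lower). With the same-numbered IP and supernatant as a block, 20 of 32 were called, 3 higher and 17 lower, against 56.4% of all genes (21.2% higher and 35.2% lower). With it Cxcr4 lost its call, at 1.29 ± 0.66 (SE; edgeR adjusted p = 0.0962), and 8 further members were lower in IP. The median was -0.27, beside -0.0032 over all genes. Lower in IP without the block were Top2a, Ccnd1, Sox2, Marcksl1, Dpysl3, Dpysl5, Sox4, Sox11 and Ncam1, and higher were Hmgb2, Pcna, Stmn1 and Cxcr4. Both transcription factors and 3 of 7 cytoskeleton genes were thus lower, and the members of mitosis and replication that were called went in either direction.

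Ncam1 and Marcksl1 were about 1 log2 unit lower in IP. Ncam1 ran from 155 to 272 CPM (median 232) in the 23 supernatant libraries and from 59.6 to 221 CPM (median 88.0) in the 23 IP libraries. It was lower in IP in 23 of 23 same-numbered pairs, at -1.08 ± 0.10 (SE; edgeR adjusted p = 1.78e-12). Marcksl1 ran from 395 to 1032 CPM (median 813) in supernatant and from 182 to 503 CPM (median 398) in IP, and differed by -1.02 ± 0.047 (SE; edgeR adjusted p = 1.89e-22), again in 23 of 23 pairs. The adult supernatant range of Marcksl1 reached down into the young IP range. Sox4 differed by -0.90 ± 0.089 (SE; edgeR adjusted p = 1.57e-11), Sox2 by -0.68 ± 0.10 (SE; edgeR adjusted p = 1.61e-07) and Dpysl3 by -0.51 ± 0.093 (SE; edgeR adjusted p = 9.97e-06), with 23, 23 and 21 pairs lower in IP.

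Pcna was higher in IP in 23 of 23 pairs. It ran from 29.2 to 43.1 CPM (median 37.4) in supernatant and from 36.6 to 79.1 CPM (median 56.3) in IP, a difference of 0.69 ± 0.061 (SE; edgeR adjusted p = 5.27e-13). Of the IP libraries, 2 of young vehicle mice, at 37.8 and 36.6 CPM, lay inside the supernatant range. Hmgb2 was higher by 0.54 ± 0.11 (SE; edgeR adjusted p = 0.000101) in 20 pairs and Stmn1 by 0.28 ± 0.074 (SE; edgeR adjusted p = 0.00171) in 19. Cxcr4 was higher by 2.40 ± 0.52 (SE; edgeR adjusted p = 0.000152) in 16 pairs, with 0.0310 to 0.263 CPM (median 0.162) in supernatant and 0 to 4.78 CPM (median 0.449) in IP, where 3 libraries had no count.

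The pair without Cre gives the background of the pull-down in 1 library each. Of the 9 members lower in IP, 8 were also lower in the no-Cre IP than in its supernatant with a 95% counting interval that did not include 0, and Sox11 was at 0.43 (0.30 to 0.56) on the log2 scale. Without Cre, Marcksl1 was at -0.89 (-0.92 to -0.87), Ncam1 at -1.25 (-1.32 to -1.18) and Sox4 at -0.77 (-0.87 to -0.66). The means over the 4 conditions with Cre, which include adults, were -1.02, -1.08 and -0.90. In young vehicle mice with Cre, the log2 ratios of mean CPM were -1.08, -1.31 and -1.05. Ccnd1 was at -1.02 (-1.18 to -0.85), Dpysl3 at -0.85 (-0.96 to -0.74), Dpysl5 at -1.32 (-1.41 to -1.24) and Sox2 at -0.24 (-0.33 to -0.14). With Cre, their means over the 4 conditions were -0.53, -0.51, -0.38 and -0.68, and their ratios in young vehicle mice were -0.26, -0.88, -0.73 and -0.77. Dpysl3 without Cre was thus close to its young vehicle ratio. Top2a was at -2.47 (-4.86 to -0.70) from 3 and 19 counts, whereas in young vehicle mice with Cre its ratio was 0.81. Of the 4 members higher in IP, Pcna was also higher without Cre, at 0.75 (0.64 to 0.85). Hmgb2 stood at -0.15 (-0.41 to 0.10) and Stmn1 at -0.17 (-0.19 to -0.15), and Cxcr4 had no count in either no-Cre library, which by the limit of 3 counts allows up to 0.0924 CPM in IP and 0.0805 CPM in supernatant. Intervals and limits cover counting error only, and with 1 pair there is no test of the difference from the Cre libraries.

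**Figure D4:**
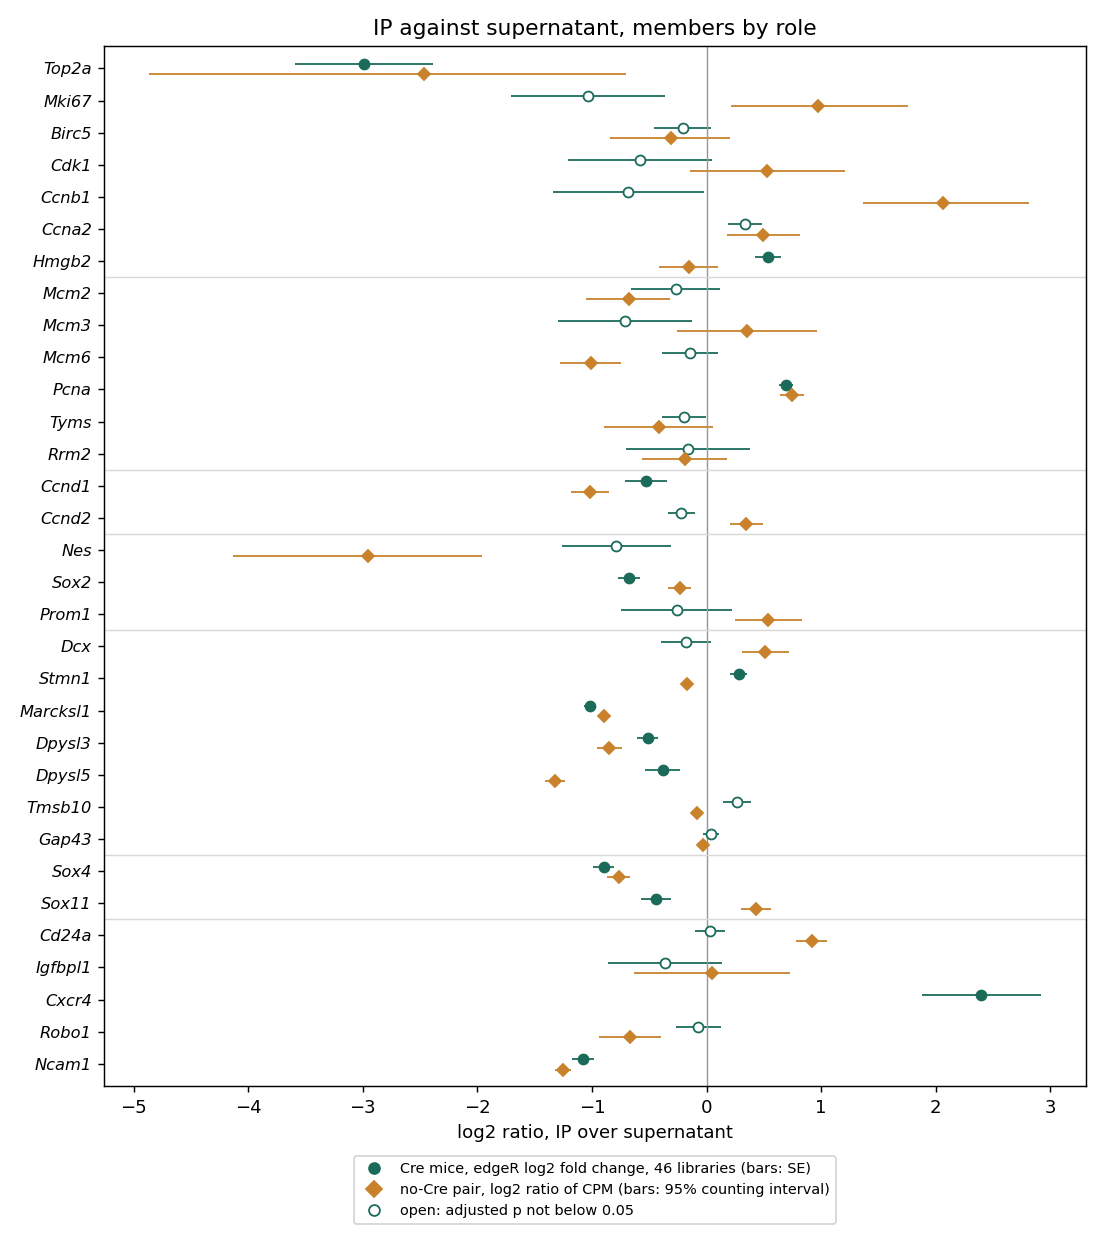
Log2 ratio of IP to supernatant for each member (x axis), as the edgeR estimate with SE over 46 libraries with Cre and as the ratio of the single no-Cre pair with its 95% counting interval. Marcksl1, Ncam1 and Sox4 lie left of 0 and Pcna right of it in both, and Cxcr4 has no no-Cre point because neither library had a count.

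Many of the rarer members were read unevenly in IP. Of the 32, 10 had no count in at least 1 IP library, led by Top2a (15 of 23 libraries), Mki67 (13), Ccnb1 (11) and Cdk1 (10), whereas in supernatant only Mki67 was at 0, in 1 library. Top2a was at 0 in all 6 adult DHT IP libraries, so its difference of -2.99 ± 0.60 (SE; edgeR adjusted p = 7.15e-05) depends on the prior count, and the mean over the 4 conditions of the log2 ratio of mean CPM was -2.55 with that group set at 3 counts over its libraries. Top2a did not go one way in all conditions: the log2 ratio of mean CPM was 0.81 in young vehicle mice, with IP higher in 3 of 6 pairs, -2.73 in young DHT and -4.24 in adult vehicle mice. The 8 members that the block added were Ccnb1 at -3.31 ± 0.88 (SE; edgeR adjusted p = 0.00275), Mki67 at -3.15 ± 0.84 (SE; edgeR adjusted p = 0.00287), Cdk1 at -2.76 ± 0.89 (SE; edgeR adjusted p = 0.0109), Mcm3, Rrm2, Prom1, Nes and Ccnd2, all lower in IP. Without the block Ccnb1 stood at -0.68 (edgeR adjusted p = 0.421) and Mki67 at -1.04 (0.211), without a call. By log2 ratio of mean CPM, IP was higher for Ccnb1 in adult vehicle mice (0.30), and for Mki67 (1.29) and Cdk1 (1.84) in adult DHT mice. It was lower for these genes in the other conditions. In the no-Cre pair Ccnb1, Mki67 and Cdk1 were at 2.06 (1.36 to 2.81), 0.97 (0.21 to 1.76) and 0.53 (-0.15 to 1.21).

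Single libraries decided some of the calls between fractions. Mki67 was called at -2.65 (edgeR adjusted p = 0.00103) without adult DHT IP replicate 6, Ccnb1 at -1.93 (0.0126) without adult vehicle IP replicate 4, Prom1 at -1.49 (0.00141) without adult DHT IP replicate 4, Rrm2 at -1.69 (0.00136) without adult DHT IP replicate 3, and Nes at -1.28 (0.0347) without adult vehicle IP replicate 5. Mki67 then had no count in adult DHT IP, and Prom1 and Rrm2 had 0 to 2 per library there, so the sizes for these genes depend on the prior count. Ccnd2 was called at -0.28 (0.0286 to 0.0444) without adult DHT IP replicate 6 or adult vehicle IP replicate 2, Ccna2 at 0.33 to 0.36 (0.0282 to 0.0489) without adult DHT IP replicate 3, adult vehicle IP replicate 2 or young vehicle IP replicate 5, and Tmsb10 at 0.29 to 0.31 (0.0173 to 0.0443) without adult DHT IP replicate 2 or 4 or young DHT IP replicate 1. Dpysl5 lost its call without any 1 of 3 libraries (young DHT IP replicate 4, young vehicle IP replicate 5 and young vehicle supernatant replicate 2), at 0.0502 to 0.0514. Without the last 10 sample numbers, Dpysl5 stood at -0.43 (0.0579) and Sox11 at -0.32 (0.0509), and Mki67 was called at -1.97 (0.0469).

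Of other pathway genes, 1 of 23 mitosis genes was higher in IP and 1 lower, 5 of 21 replication genes were higher and 2 lower, 4 of 23 immature neuron genes were higher and 8 lower, and 1 of 15 progenitor genes was higher and 6 lower. Marker lists of other cells were lower in IP for 5 of 7 astrocyte, 4 of 7 oligodendrocyte precursor, 3 of 7 myelinating, 1 of 6 endothelial and mural and 1 of 5 ependymal markers. Of 6 premyelinating markers 1 was higher, microglial markers split 1 higher and 1 lower, and mature neuron markers split 3 higher and 2 lower. Their part in the members' differences was not tested.

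Whether age acted differently in IP and supernatant was tested as an age-by-fraction term. In vehicle mice 2 of 32 members were called, both with a larger fall in IP, against 1.04% of all genes (0.774% lower). Birc5 was at -3.54 ± 0.75 (SE; edgeR adjusted p = 0.00906) and Nes at -5.84 ± 1.51 (SE; edgeR adjusted p = 0.0419). With the replicate block Birc5 stood at -3.52 ± 0.89 (SE; edgeR adjusted p = 0.0677) and Nes at -6.27 ± 1.88 (SE; edgeR adjusted p = 0.132), so neither held. Nes also lost its call without any 1 of 16 of 22 libraries, at edgeR adjusted p = 0.0516 to 0.0709, and limma voom called neither gene. Top2a was called at -7.56 (0.0446) without adult vehicle IP replicate 1, the one adult vehicle IP library with a count. That group is then at 0 throughout, so the size depends on the prior count. In DHT mice 0 of 32 members were called, against 0.882% of all genes (0.732% lower and 0.15% higher), with 4 at an unadjusted p below 0.05 and 0 by DESeq2 or voom. Leaving out 1 adult DHT IP library called Rrm2 at -6.57 (edgeR adjusted p = 0.00723, replicate 3), Prom1 at -5.44 (0.0119, replicate 4) or Ncam1 at 0.94 (0.0479, replicate 5). Rrm2 and Prom1 then had 0 to 2 counts in each adult DHT IP library, so their sizes depend on the prior count.

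No member was called between prenatal DHT and vehicle in any of the 4 comparisons by edgeR. The shares of all genes called were 0% in young supernatant, adult supernatant and young IP and 0.00629% in adult IP. At an unadjusted p below 0.05 there were 1, 1, 2 and 5 members. Treatments separated without overlap for 0 members in each comparison, where the shares of all genes doing so, higher and lower after DHT, were 0.086% and 0.043% in young supernatant, 0.111% and 0.0982% in adult supernatant, 0.0378% and 0.113% in young IP, and 0.264% and 0.164% in adult IP. DESeq2 called 0, 0, 0 and 2, and voom 0 in each. Log2 differences, DHT over vehicle, ranged from -0.36 to 0.34 in young supernatant, -0.88 to 0.71 in adult supernatant, -3.81 to 1.58 in young IP and -2.78 to 5.86 in adult IP, with medians of -0.074, -0.023, 0.047 and 0.014. Top2a had 0 counts in adult DHT IP and 4 in adult vehicle IP, so its edgeR difference there depends on the prior count. With the DHT group set at 3 counts, its log2 ratio of mean CPM was -0.45.

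The 2 members called by DESeq2 in adult IP were Birc5 and Nes, both higher after DHT. Birc5 stood at 0.163, 0.0768, 0.359, 0.150 and 0.131 CPM in adult vehicle IP and ran from 0.174 to 5.86 CPM (median 1.45) in adult DHT IP, where edgeR gave 3.53 ± 0.86 (SE; edgeR adjusted p = 0.303). Of the 6 DHT libraries 5 were above all vehicle ones, and replicate 3 lay inside the vehicle range. Nes stood at 0.0233, 0, 0, 0 and 0.131 CPM and ran from 0 to 6.23 CPM (median 1.35), with 5.86 ± 1.74 (SE; edgeR adjusted p = 0.376) by edgeR and 2 DHT libraries at 0. Marcksl1 gives the precision for a well read gene. Its DHT differences were -0.060 ± 0.069 in young and -0.10 ± 0.073 in adult supernatant, and -0.074 ± 0.11 in young and -0.32 ± 0.11 in adult IP (log2, SE), none of which was called. In adult IP its ranges overlapped narrowly, at 182 to 226 CPM after DHT and 223 to 291 CPM with vehicle. Of the 7 cytoskeleton and growth cone members, 1 had an unadjusted edgeR p below 0.05 in that comparison.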

How the data were processed

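Gene counts per library were deposited by the authors as 1 table of 23284 genes and 48 libraries, with expected counts that were whole for 98.49% of values. Per the submitters' processing notes, the tools were HTSeq 0.6.1, DESeq2 1.14.1, TopHat2 2.0.13 with Bowtie2 2.2.1, Cuffdiff 2.1.1, Cufflinks and FastQC 0.11.3, with the mm10 build. Which tool counted the reads is not given in the sources. Libraries were made with a low-input polyA kit, per the labels' protocols, and are treated as unstranded.

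Counts were rounded and tested in R 4.3.3 with edgeR 4.0.16 (quasi-likelihood, TMM, filterByExpr with minimum count 10 and total 15) over all genes, with Benjamini-Hochberg adjustment and a threshold of 0.05. Fractions and age-by-fraction terms were fitted on 46 libraries (16660 genes), and age, treatment and their interaction on the 23 libraries of each fraction (16286 genes in supernatant and 15890 in IP). The SE is the log2 difference divided by the square root of F. The script was tested on simulated data. DESeq2 1.42.0, limma 3.58.1 voom with sample weights, RLE scaling, other filters, a replicate block, the compared groups only, the 10 last sample numbers left out or as a term, and leaving out each library were alternatives. No libraries had identical values. No-Cre libraries entered no fit, and their ratios carry 95% Poisson-based counting intervals that cover counting error only.

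IP and supernatant of the same condition and number were treated as pairs in the replicate block and in the counts of pairs, since the supernatant is what the pull-down left. The main fits of fractions and of age by fraction did not use the pairing. Deviations from group means correlated with a median r of 0.17 over 23 pairs (-0.071 to 0.42, with 18 above 0.1), and 19 of 23 libraries matched their own number best. All 32 members could be named, and from each further list at most the 3 genes with the smallest p in a comparison. The members and lists were chosen with earlier results of these data known. Gene positions are from GRCm38 and promoters from RefSeq.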

Additional observations from a re-analysis of the deposited data

Results flagged for a closer look

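Of 255 combinations of a member and a group of 5 or 6 libraries, 25 had 1 library set apart from the others by a gap that is large for the group's range (Dixon's test at 95%), 17 in IP and 8 in supernatant. For normally distributed values chance alone flags about 1 in 20 groups, and the rate for low counts with libraries at 0 was not measured.

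Most of the IP libraries that stood apart were high for a rare transcript. Ccnb1 had such a library in each of the 4 IP groups, at 2.51 CPM in young vehicle replicate 6, 2.00 CPM in young DHT replicate 2, 2.202 CPM in adult vehicle replicate 4 and 0.701 CPM in adult DHT replicate 2. Top2a was at 3.55 CPM in young vehicle replicate 2 and 0.0931 CPM in adult vehicle replicate 1, Mki67 at 1.65 CPM in adult DHT replicate 6, Cdk1 at 0.111 CPM in adult vehicle replicate 3, and Mcm3 at 1.77 CPM in young DHT replicate 3. Rrm2 was at 5.79 CPM in adult DHT replicate 3, Nes at 0.131 CPM in adult vehicle replicate 5, and Prom1 at 4.64 CPM in adult DHT replicate 4 and 4.62 CPM in adult vehicle replicate 3. Among better read members in IP, Marcksl1 was highest at 499 CPM in young DHT replicate 5 and Tmsb10 at 1572 CPM in young vehicle replicate 6, and adult vehicle replicate 2 was highest for both Dpysl5 (155 CPM) and Robo1 (34.9 CPM).

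In supernatant, adult DHT replicate 4 was lowest for Ccnd1 (7.21 CPM) and highest for Sox11 (23.6 CPM). Mki67 was highest at 1.09 CPM in young vehicle replicate 5, Hmgb2 at 13.9 CPM in young DHT replicate 4, Prom1 at 6.96 CPM in young DHT replicate 3, Ccna2 at 4.18 CPM in adult vehicle replicate 5 and Igfbpl1 at 2.36 CPM in adult vehicle replicate 2. Cxcr4 was lowest at 0.0540 CPM in adult DHT replicate 3.

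The age effect differed between fractions in vehicle mice for Birc5 (-3.54) and Nes (-5.84 on the log2 scale, IP over supernatant), by the age-by-fraction term of edgeR, and neither passed with the replicate block.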

How the results depend on the processing

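Over all members, comparisons and alternatives, 10559 values kept their side of the threshold and direction, 99 lost a call, 72 gained one and 0 calls reversed. Between fractions, 13 members were called, against 24 by limma voom (5 higher and 19 lower) and 20 with the replicate block (3 higher and 17 lower). With age in DHT supernatant, 12 were called (3 higher and 9 lower), 6 without the last 10 sample numbers, and 0 higher either there, with a term for those numbers (10 lower) or with the compared groups only (8 lower). With age in DHT IP, 2 were called, against 4 by voom, 1 without the last 10 sample numbers and 1 with the compared groups only. DESeq2 called 2 members for DHT in adult IP, where edgeR called 0. The age-by-fraction term in vehicle mice had 2 members, 0 by voom, 0 with the replicate block and 1 without the last 10 sample numbers. The fits without the last 10 sample numbers had fewer libraries, and the fits with a term for those numbers kept all of them. The cause of the changes was not tested for any alternative.

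Leaving out each library in turn gave 12 to 15 members between fractions, 10 to 14 and 9 to 13 with age in vehicle and DHT supernatant, 2 to 3 and 1 to 3 with age in vehicle and DHT IP, 1 to 2 and 0 to 1 for the age-by-fraction term in vehicle and DHT mice, and 0 to 0 for each DHT and age-by-treatment comparison. Within a fraction, libraries of the 2 treatments or ages share only a number (median r of deviations 0.11 over 22 and -0.013 over 20 pairs). A block on that number gave 14 and 13 members with age in vehicle and DHT supernatant and 3 and 2 in IP, and 0 in each DHT and age-by-treatment comparison. In the age-by-fraction term in DHT mice the block gave 0. Ccnb1, Cdk1, Mki67 and Top2a had no count in 10 to 15 of the 23 IP libraries, although depth was similar in both fractions, and their spread between IP libraries limits what could be called there.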

Other observations

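Genes that hold cells out of the cycle were counted as a further list. Of 11 such genes tested in supernatant, 0 rose and 6 fell with age in vehicle mice and 1 rose and 3 fell in DHT mice, with medians of -0.21 and -0.19. Cdkn1c, an inhibitor of cyclin-dependent kinases, fell, at -1.39 ± 0.23 (SE; edgeR adjusted p = 0.000167) in vehicle and -1.19 ± 0.22 (SE; edgeR adjusted p = 0.000473) in DHT mice, and Cdkn1a, another inhibitor, at -0.93 ± 0.19 (SE; edgeR adjusted p = 0.00139) and -0.63 ± 0.18 (SE; edgeR adjusted p = 0.0157). Rbl2, a relative of the retinoblastoma protein, rose in DHT mice by 0.48 ± 0.13 (SE; edgeR adjusted p = 0.0127). None of the 11 was called with age in IP by edgeR, with 3 in either treatment at an unadjusted p below 0.05, and 1 was higher and 3 lower in IP than in supernatant.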
